A study of Mus musculus with 2 samples.

Results

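Lipogenesis-low white adipocytes were adipocyte nuclei of mouse visceral adipose tissue (VAT) in which the genes of fatty acid synthesis took up the smallest part of the RNA. They were selected on measured values, as the lowest 25% of the adipocyte nuclei of each library by the share of UMIs in 6 ranking genes, Acaca, Acly, Fasn, Elovl6, Acss2 and Me1. UMIs, or unique molecular identifiers, count RNA molecules. There were 366 such nuclei among 1466 adipocyte nuclei in replicate 1 and 1269 among 5077 in replicate 2. In all, 1635 of 6543 adipocyte nuclei were members, out of 15058 nuclei that passed the filters and 24492 called nuclei. A nucleus passed the filters with more than 500 genes, more than 1000 UMIs and less than 15% mitochondrial UMIs. It was taken as an adipocyte with at least 10 UMIs over Plin1, Cidec, Pde3b, Acsl1, Dgat2, Pnpla2, Adrb3 and Aqp7, at most 2 over the other-lineage genes Upk3b, Msln, Ptprb, Pecam1, Col3a1 and Cybb, and at most 2 over the thermogenic genes Cidea, Esrrg and Ucp1. The comparison was with the middle 50% of the adipocyte nuclei of the same library, 734 and 2539 nuclei, called mid-range nuclei here.

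The study profiled fat depots of mice during aging by single-nucleus RNA sequencing. The 2 libraries used here come from VAT (gonadal fat) of 2 female C57BL/6J mice aged 2 months, 1 library per mouse, with no treatment named. The other ages and depots were not analysed here. The labels name a Singleron nucleus kit in the protocol and 10x Genomics in the description, and they give the cell type as adipocytes although 51.75% and 41.53% of the filtered nuclei met the adipocyte gate. The filtered nuclei of replicate 1 held 8466237 UMIs and those of replicate 2 held 48068273, at a UMI saturation of 65.8% and 52.8%. The libraries stood apart in mitochondrial RNA, with a median share per adipocyte nucleus of 5.09% in replicate 1 and 0.296% in replicate 2. They shared 85 barcodes among called nuclei, 5 among adipocyte nuclei and 0 among low nuclei. Values are therefore given for each library.

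White adipocytes make fatty acids from cytosolic acetyl-CoA, which ATP citrate lyase (Acly) and acetyl-CoA synthetase (Acss2) supply. Acetyl-CoA carboxylase (Acaca) and fatty acid synthase (Fasn) build palmitate from it with NADPH, part of which comes from malic enzyme (Me1), and Elovl6 lengthens the chain. Insulin and carbohydrate induce these genes through the transcription factors SREBP1c, encoded by Srebf1, and ChREBP, encoded by Mlxipl.

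The ranking genes took up a median of 1.61% of the UMIs of a low nucleus in replicate 1 and 1.92% in replicate 2. Other-lineage nuclei here are filtered nuclei with at least 3 UMIs over the other-lineage gate genes and at most 2 over the adipocyte gate genes. The medians of the share were 3.01% and 3.52% in the mid-range nuclei, and 0.284% and 0.264% in other-lineage nuclei. These values chose the nuclei and are a description with no test. The shares formed a continuous distribution without a gap at the limit. In replicate 1 the highest member had a share of 2.125% (81 of 3811 UMIs) and the lowest non-member 2.126% (33 of 1552 UMIs). In replicate 2 the highest member (231 of 9114 UMIs) and the lowest non-member (117 of 4616 UMIs) both had 2.535%. Low nuclei kept RNA of the pathway: Acaca was at 7016 CPM (UMIs per 1000000 UMIs of the group) in the low nuclei of replicate 1 and 9634 in replicate 2, and Elovl6 at 460 and 606. Elovl6 had 0 UMIs in 159 low nuclei (43.4%) of replicate 1 and 342 (27.0%) of replicate 2.

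**Figure D1:**
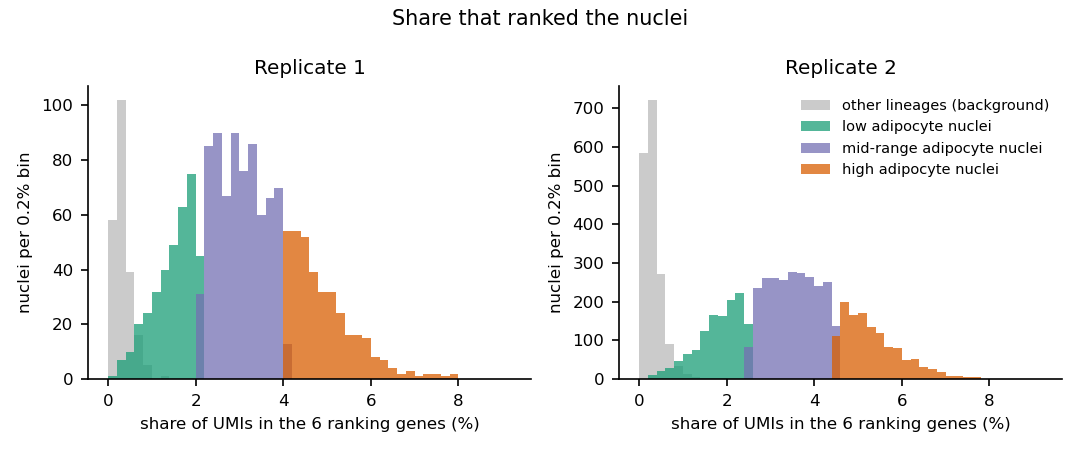
Number of nuclei (vertical axis, per bin of 0.2%) by the share of UMIs in the 6 ranking genes, in percent (horizontal axis), for low, mid-range, high (the upper 25%) and other-lineage nuclei of each library. Low nuclei sit next to the mid-range nuclei without a gap (medians 1.61% and 3.01% in replicate 1, 1.92% and 3.52% in replicate 2), above most other-lineage nuclei with medians of 0.284% and 0.264%.

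Markers of the white adipocyte stood high in the low nuclei. Plin1, which coats the lipid droplet, was at 1129 CPM in low and 993 in mid-range nuclei of replicate 1, and at 1032 and 886 in replicate 2. Cidec, which promotes droplet fusion, was at 1607 and 1230 in replicate 1 and at 1197 and 931 in replicate 2. Pnpla2, the triglyceride lipase ATGL, was at 248 and 229 in replicate 1 and at 172 and 152 in replicate 2. These 3 genes belonged to the gate, so the values are a description. Plin1 was at 56.0 and 41.5 in other-lineage nuclei, where low levels of the 3 genes were set in advance by the limit on gate genes. Other gate genes went the other way: Acsl1 was at 1616 CPM in low and 1850 in mid-range nuclei of replicate 1 and at 2071 and 2142 in replicate 2, and Dgat2 was at 2253 and 2454 in replicate 1 and at 1166 and 1397 in replicate 2. Of 9 adipocyte markers outside the gate, 0 rose and 1 fell, with a median log2 change of 0.05, and 4 had a negative change. The gene that fell was Adipor2, which the study names as an adipocyte marker (log2 change -0.34, SE 0.091, adjusted p 0.00366). It also fell when nuclei were ranked within bins of depth, described below (-0.27, adjusted p 0.0387). The summed level of the 9 markers was 26442 CPM in low and 26757 in mid-range nuclei of replicate 1. In replicate 2 it was 31401 and 30063, against 3258 and 3116 in other-lineage nuclei of replicates 1 and 2. Other-lineage nuclei were chosen to be poor in adipocyte gate genes, so their level is a reference and not a test. The label of white adipocyte thus fits these markers. Adipoq, which encodes adiponectin, was at 1298 in low and 1054 in mid-range nuclei of replicate 1 and at 439 and 374 in replicate 2 (log2 change 0.14, SE 0.090, adjusted p 0.372).

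Low nuclei were shallower than mid-range nuclei. Their median was 2338.5 UMIs against 3008.5 in replicate 1 and 3440 against 4972 in replicate 2. Thinned to 1000 UMIs, they held a median of 642 genes against 638 and 698 against 686. Median mitochondrial shares were 6.85% against 4.74% in replicate 1 and 0.443% against 0.303% in replicate 2. Across adipocyte nuclei, which share their library, Spearman's rho between the ranking share and the UMIs of a nucleus was 0.264 in replicate 1 (n = 1466) and 0.388 in replicate 2 (n = 5077). The nuclei were therefore also ranked within 10 depth bins of each library, which set the medians to 2942.5 UMIs for low and 2944.5 for mid-range nuclei in replicate 1, and to 5050 and 5079 in replicate 2. Of the low nuclei ranked in bins, 84.2% in replicate 1 and 77.7% in replicate 2 were also low without bins. A call lost or gained within bins can thus also rest on the change of nuclei.

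Outside the genes that chose the nuclei, 1389 of 15003 tested genes (9.26%) differed between low and mid-range nuclei at an adjusted p under 0.05. Of these, 686 rose (4.57%) and 703 fell (4.69%). The p-values come from sums of the libraries of 2 mice, with 1 residual degree of freedom. The SE followed the spread between the libraries only loosely. It was 0.090 for Lipe, with changes of -0.12 and -0.17 in replicates 1 and 2, and 0.092 for Npr3, with 0.18 and 0.575. For Nnat it was 0.11, with changes of 2.59 and 4.38, so a small p-value does not mean that the libraries were alike. The genes that fell had a median log2 change of -0.47 and a median of 136 CPM in mid-range nuclei. The genes that rose had a median log2 change of 0.92 and a median of 12.8 CPM, and 479 of 686 (69.8%) stood higher in the other-lineage nuclei than in the low nuclei, against 46.3% of all tested genes. Ranked within depth bins, 742 of 15361 genes (4.83%) were called, of which 286 rose (1.86%) and 456 fell (2.97%). Of the genes called without bins, 401 of 703 that fell (57.0%) and 194 of 686 that rose (28.3%) were also called within the bins. The calls rest on the library block and on the test: without the block edgeR called 0 genes (557 at an unadjusted p under 0.05), and DESeq2 with the block called 271 genes, of which 49 rose (18.1% of those called) and 222 fell. Without the filter on low counts, 352 rose (26.6% of those called) and 970 fell. A mitochondrial limit of 5% left 488 called genes, and a gate of 20 UMIs left 547. Of the genes described below, Srebf1, Irs2, Npr3, Hmgcs1, Akt2, Prkaa2, Taldo1, Sema3a, Nrg4, Bcl6, Eepd1, Vim, Flna, Col6a1, Col6a3, Dcn, Dhcr7, Mrc1, Cav1, Atp5pb, Sdha, Uqcrc1, mt-Rnr1 and mt-Rnr2 were not called by DESeq2. DESeq2 gave no adjusted p for Fads2, Fabp5, Rarres2, Idi1, Me3, Grb14, Ccn5, Prss35, the genes with large rises other than Nnat, Emp1 and Chl1, and the markers of other cell types other than Dcn and Mrc1 that rose. The genes near a ranking gene other than Pgm3 and Prss35 were not looked up in it. All changes are relative to the TMM scaling, which set low nuclei 0.13 above mid-range nuclei on the log2 scale in both libraries. With UMI totals alone the median of all genes was 0.14, and 76.6% of the called genes rose in place of 49.4%.

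**Figure D2:**
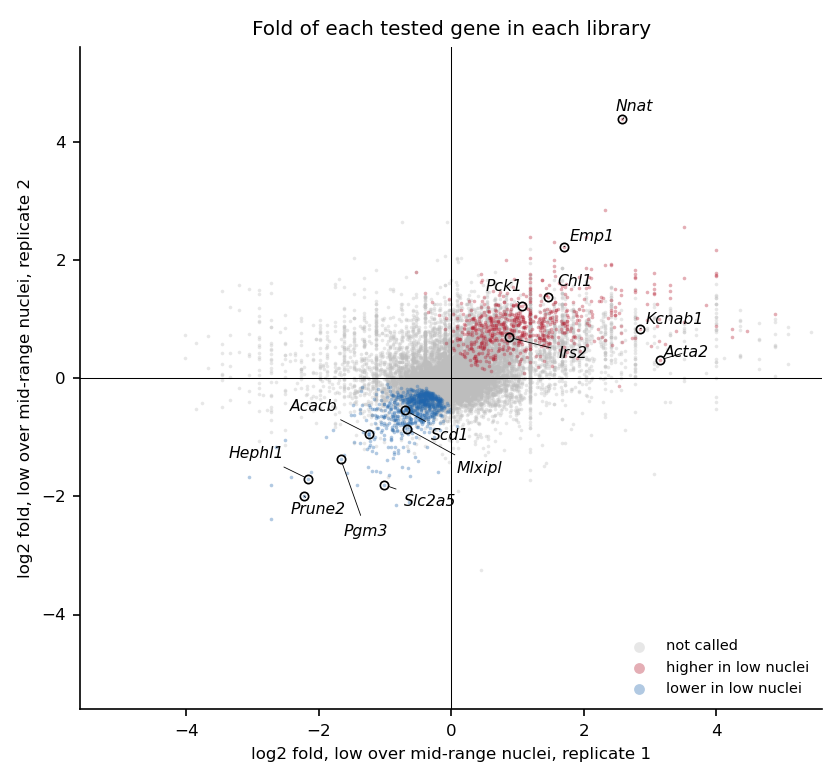
Log2 change of each tested gene from mid-range to low nuclei in replicate 1 (horizontal axis) and replicate 2 (vertical axis), with 0.5 UMIs added, red for genes that rose, blue for genes that fell and grey for genes not called, and with 14 named genes circled. Nnat was the highest point on the axis of replicate 2, at 2.59 and 4.38, and Prune2 was the lowest of the circled genes on both axes, at -2.22 and -1.99.

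Each ranking gene was tested after the nuclei were ranked anew without it, by the other 5 genes, and each was low in both libraries. Elovl6, the elongase, was at 550 CPM in low and 1674 in mid-range nuclei of replicate 1, and at 705 and 2143 in replicate 2 (log2 change -1.72, SE 0.092, adjusted p 5.3e-74, with 9.51% of all genes called in that ranking). It changed most of the 6 genes, with alike ratios in the libraries. Me1 was at 2323 and 5813 in replicate 1 and at 3078 and 6633 in replicate 2 (log2 change -1.34, SE 0.090, adjusted p 4.2e-14, 8.32% called). Acss2 was at 1461 and 3489 in replicate 1 and at 2490 and 4995 in replicate 2 (log2 change -1.25, SE 0.090, adjusted p 9.4e-40, 9.11% called). Acly was at 2444 and 4282 in replicate 1 and at 1939 and 3949 in replicate 2 (log2 change -1.04, SE 0.089, adjusted p 5.9e-28, 9.17% called). In these 3 genes the low nuclei also stood below the mid-range nuclei of both libraries. Acaca was at 8772 and 13059 in replicate 1 and at 11195 and 16979 in replicate 2 (log2 change -0.68, SE 0.086, adjusted p 5.0e-13, 5.05% called). Fasn was at 2881 and 3677 in replicate 1 and at 2080 and 2460 in replicate 2 (log2 change -0.41, SE 0.10, adjusted p 0.00149, 8.45% called). The levels of Fasn overlapped across libraries, since low nuclei of replicate 1 stood above mid-range nuclei of replicate 2. Within depth bins the 6 changes ran from -1.59 for Elovl6 to -0.39 for Fasn, and all were called.

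Other genes of fatty acid synthesis were low as well. Their list, called other lipogenesis enzymes here, also holds genes of other kinds, such as the citrate exporter Slc25a1 and the lipogenic protein gene Thrsp. Of 19 tested, 0 rose and 14 fell, with a median log2 change of -0.60 against 0.01 for all genes, and the same counts were found within depth bins. Acacb makes malonyl-CoA at mitochondria, which restrains the entry of fatty acids for oxidation. It was at 370 CPM in low and 798 in mid-range nuclei of replicate 1, and at 1093 and 1937 in replicate 2 (log2 change -1.07, SE 0.094, adjusted p 9.9e-26). Scd1, the main desaturase of the adipocyte, was at 8292 and 12343 in replicate 1 and at 3494 and 4657 in replicate 2 (log2 change -0.62, SE 0.097, adjusted p 2.3e-08). Slc25a1, which exports citrate from mitochondria, was at 484 and 675 in replicate 1 and at 259 and 430 in replicate 2 (log2 change -0.74, SE 0.092, adjusted p 4.3e-13). Low nuclei were below mid-range nuclei of the same library for all 3 genes. Pcx, the pyruvate carboxylase that refills citrate, was at 1284 and 1704 in replicate 1 and at 1593 and 2049 in replicate 2 (log2 change -0.51, SE 0.091, adjusted p 1.8e-06). The elongase Elovl5 fell by 0.64, the acyl-CoA synthetase Acsl3 by 0.89, the desaturases Fads2 by 0.79 and Scd2 by 0.66, and the lipogenic protein gene Thrsp by 0.41. Of the 5 genes of the list that were not called, Acss3, Elovl1, Fads1 and Mid1ip1 lay between -0.19 and -0.09, and Elovl3 was at -1.02 (adjusted p 0.217).

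Enzymes of NADPH supply and of the pentose phosphate pathway gave 1 that rose and 4 that fell of 8 tested (median -0.27), and 0 rose and 4 fell within depth bins. Tkt, the transketolase of the non-oxidative branch of that pathway, which forms no NADPH, was at 2699 CPM in low and 3876 in mid-range nuclei of replicate 1, and at 1129 and 1995 in replicate 2 (log2 change -0.80, SE 0.092, adjusted p 4.9e-15). G6pdx, which opens the NADPH-forming oxidative branch, was at 53.3 and 107 in replicate 1 and at 86.2 and 124 in replicate 2 (log2 change -0.78, SE 0.12, adjusted p 6.9e-09). Pgd, the next NADPH-forming enzyme, fell by 0.74, and Taldo1 of the non-oxidative branch by 0.28. The mitochondrial malic enzyme Me3 rose on 10 and 115 UMIs in low nuclei, but within depth bins its change was 0.71 in place of 1.30 (adjusted p 0.315) and it stood at 88.3 and 148 CPM in other-lineage nuclei against 9.51 and 21.2 in low nuclei.

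**Figure D3:**
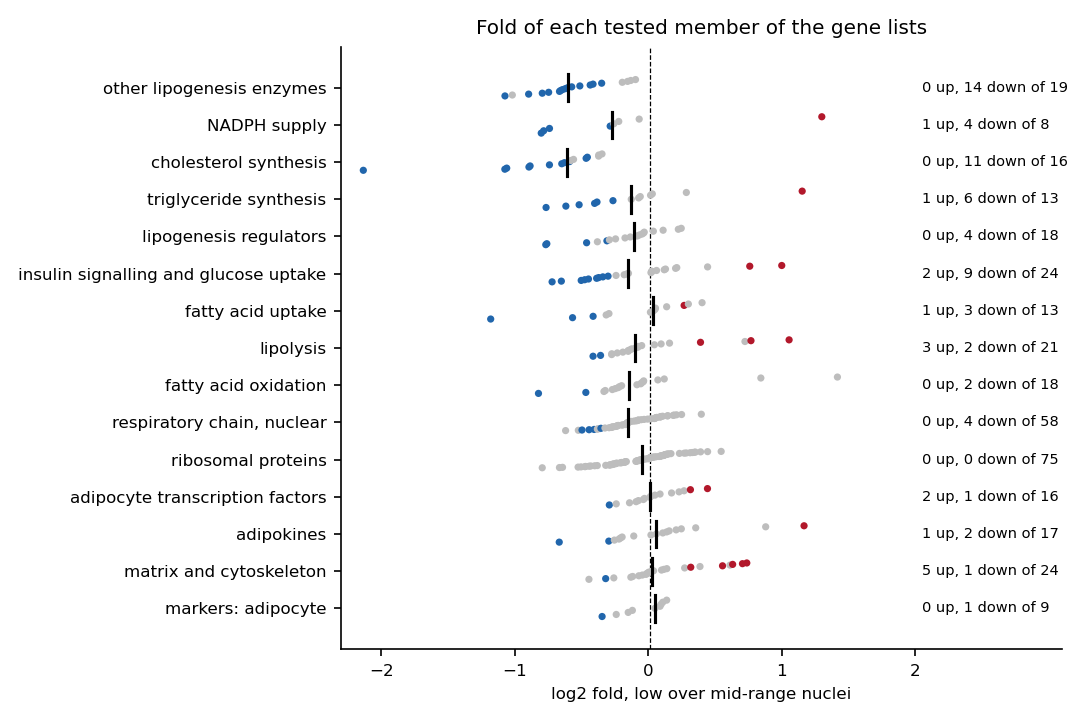
Log2 change of every tested gene of 15 gene lists (horizontal axis), 1 line per list, with genes that rose in red, genes that fell in blue and others in grey, a bar at the median of each list and a dashed line at the median of all genes (0.01). The lists of other lipogenesis enzymes (14 of 19 fell) and cholesterol synthesis (11 of 16 fell) lie lowest, with medians of -0.60 and -0.61. The list of NADPH supply also holds Tkt and Taldo1, which form no NADPH.

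Genes of cholesterol synthesis were lower too, although none of them took part in the ranking. Of 16 tested, 0 rose and 11 fell (median -0.61), while 9 fell within depth bins and 5 with DESeq2. Sqle, the squalene epoxidase, was at 23.8 CPM in low and 49.7 in mid-range nuclei of replicate 1, and at 25.3 and 47.4 in replicate 2 (log2 change -1.07, SE 0.18, adjusted p 1.4e-07). Lss, which closes the sterol ring, was at 40.9 and 89.8 in replicate 1 and at 48.4 and 87.4 in replicate 2 (log2 change -1.06, SE 0.14, adjusted p 3.1e-12). For both genes the low nuclei of each library lay below the mid-range nuclei of either library. Cyp51 fell by 0.88, while Hmgcs1, the synthase ahead of HMG-CoA reductase, fell by 0.46 and was not called within depth bins (-0.28, adjusted p 0.126). Idi1 fell on 1 and 9 UMIs in low nuclei.

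Promoters were read for the motifs of factors known to act on these pathways, with motifs and genes chosen after values were seen. The windows run from 250 bases before to 50 after the start site, come from RefSeq on GRCm38.p6 and were matched by symbol. On both strands, the sterol regulatory element TCACNCCAC was in 1.44% of 27025 genes, the E-box CACGTG, which is part of the ChREBP element, in 8.09%, and the cAMP response element TGACGTNA in 3.36%. Of the 14 lipogenesis enzymes that fell, 12 had a window, of which 0 held TCACNCCAC and 3 held CACGTG. Of the 11 cholesterol genes that fell, 9 had a window, of which 1, Hmgcs1, held TCACNCCAC and 1, Dhcr7, held CACGTG. Among all genes that fell, 14% of 536 with a window held CACGTG, against 11.4% of 11064 tested genes with a window and 6.8% of 485 that rose. The cAMP response element was in 3 of the 12 lipogenesis enzymes that fell (Elovl5, Pnpla3 and Slc25a1), and in 4.12% of the genes that rose against 5.36% of tested genes. All 6 ranking genes had a window and 0 held any of the 3 motifs. A match is a description of letters and not a binding site. The windows of Slc25a1 (chr16:17928170-17928469, minus strand), Pcx (chr19:4510222-4510521, plus strand) and Hmgcs1 (chr13:119690101-119690400, plus strand) are shown since these genes fell and hold a motif. That of Pck1 (chr2:173152823-173153122, plus strand) is shown since Pck1 rose and holds TGACGTNA read on the other strand. Slc25a1 also holds TGACGTNA, after its start site and left in lower case. Capitals mark the match to the motif that each window is shown for, which starts 239, 248, 137 and 93 bases before the start site.
Slc25a1: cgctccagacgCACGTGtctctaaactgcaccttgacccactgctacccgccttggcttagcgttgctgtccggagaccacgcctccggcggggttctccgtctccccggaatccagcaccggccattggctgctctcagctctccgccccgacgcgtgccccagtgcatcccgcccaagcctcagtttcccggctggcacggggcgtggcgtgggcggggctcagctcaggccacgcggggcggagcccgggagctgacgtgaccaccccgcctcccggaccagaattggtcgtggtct
Pcx: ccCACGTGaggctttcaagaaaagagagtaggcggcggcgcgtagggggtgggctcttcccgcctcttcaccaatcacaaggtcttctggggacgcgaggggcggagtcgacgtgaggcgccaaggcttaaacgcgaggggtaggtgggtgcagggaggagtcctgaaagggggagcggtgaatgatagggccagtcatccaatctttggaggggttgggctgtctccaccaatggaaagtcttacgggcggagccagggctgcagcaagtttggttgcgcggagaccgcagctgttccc
Hmgcs1: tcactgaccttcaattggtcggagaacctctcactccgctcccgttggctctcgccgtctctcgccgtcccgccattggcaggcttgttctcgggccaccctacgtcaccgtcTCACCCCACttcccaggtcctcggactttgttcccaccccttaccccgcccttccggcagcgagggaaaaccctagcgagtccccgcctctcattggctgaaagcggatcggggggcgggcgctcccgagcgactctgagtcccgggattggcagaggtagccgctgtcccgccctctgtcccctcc
Pck1: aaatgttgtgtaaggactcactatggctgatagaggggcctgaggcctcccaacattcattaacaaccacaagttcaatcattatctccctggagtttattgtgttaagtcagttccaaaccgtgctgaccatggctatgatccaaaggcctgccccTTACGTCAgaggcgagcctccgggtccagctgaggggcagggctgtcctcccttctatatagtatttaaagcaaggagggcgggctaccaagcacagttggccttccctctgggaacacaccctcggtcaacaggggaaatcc

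Among regulators of lipogenesis, 0 rose and 4 fell of 18 tested, also within depth bins. Their median was -0.11, and it was 0.02 with UMI totals alone. Mlxipl, which encodes ChREBP, was at 1040 CPM in low and 1509 in mid-range nuclei of replicate 1, and at 1133 and 1879 in replicate 2 (log2 change -0.77, SE 0.091, adjusted p 4.5e-14). Srebf1 was at 1809 and 1848 in replicate 1 and at 778 and 974 in replicate 2 (log2 change -0.31, SE 0.090, adjusted p 0.012). With UMI totals alone the adjusted p of Srebf1 was 0.205. Mlxipl was lower in both libraries, while the change of Srebf1 was -0.16 in replicate 1 and -0.45 in replicate 2. Insig1, which holds SREBP proteins in the endoplasmic reticulum and is itself a target of them, was at 269 and 517 in replicate 1 and at 258 and 342 in replicate 2 (log2 change -0.76, SE 0.094, adjusted p 5.7e-13). Prkaa2, a catalytic subunit of AMP-activated kinase, fell by 0.46.

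Genes of insulin signalling and glucose uptake moved both ways, with 2 that rose and 9 that fell of 24 tested (median -0.15), and 2 that rose and 6 that fell within depth bins. Irs2, an insulin receptor substrate, was at 78.9 CPM in low and 39.4 in mid-range nuclei of replicate 1, and at 33.1 and 18.8 in replicate 2 (log2 change 0.76, SE 0.17, adjusted p 4.3e-04). Irs2 stood at 56.0 and 62.5 in other-lineage nuclei. Slc2a4, which encodes the insulin-responsive glucose transporter GLUT4, was at 417 and 453 in replicate 1 and at 186 and 260 in replicate 2 (log2 change -0.45, SE 0.093, adjusted p 9.5e-05). Low nuclei were higher in Irs2 and lower in Slc2a4 in both libraries, with a change of -0.25 in replicate 1 and -0.61 in replicate 2 for Slc2a4. Hexokinase Hk2 fell by 0.65, the kinase Akt2 by 0.47 and the pyruvate dehydrogenase kinase Pdk1 by 0.72. Grb14, an inhibitor of the insulin receptor, rose by 1.00, and within depth bins its change was 0.83 and not called (adjusted p 0.0805). Insr itself had a log2 change of -0.16 and was not called.

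In triglyceride synthesis, 1 gene rose and 6 fell of 13 tested (median -0.13, or 0.00 with UMI totals alone), and 2 rose and 4 fell within depth bins. Pck1, the carboxykinase that takes part in making glycerol 3-phosphate from non-sugar precursors in the fasted adipocyte, lies at chr2:172994744-173001066 (GRCm39). It was at 413 CPM in low and 180 in mid-range nuclei of replicate 1, and at 211 and 83.0 in replicate 2 (log2 change 1.15, SE 0.097, adjusted p 5.4e-28). Its level in other-lineage nuclei was 45.2 and 15.5, below that of the low nuclei. Gpam, which acylates glycerol 3-phosphate, was at 1085 and 1524 in replicate 1 and at 1181 and 2013 in replicate 2 (log2 change -0.76, SE 0.092, adjusted p 6.0e-14). The later enzymes Agpat2 and Lpin1 fell by 0.62 and 0.52, and Gpd1, which forms glycerol 3-phosphate from glycolysis, fell by 0.38. In nuclei thinned to 1000 UMIs, Pck1 was detected in 23.8% of low and 11.3% of mid-range nuclei of replicate 1, and in 12.1% and 6.70% in replicate 2. In other-lineage nuclei the shares were 4.98% and 1.91%.

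Along the whole range of the ranking share, in 8 groups of adipocyte nuclei of each library, of which groups 1 and 2 hold the low nuclei, these genes formed gradients. Pck1 went from 484 CPM in group 1 to 54.1 in group 8 of replicate 1, and from 276 to 25.9 in replicate 2. Acacb went from 250 to 1532 in replicate 1 and from 860 to 2639 in replicate 2. Mlxipl went from 857 to 2247 in replicate 1 and from 957 to 2691 in replicate 2. Group 1 was thus the highest in Pck1 and the lowest in Acacb and Mlxipl of these end groups in both libraries. Adipoq went from 1440 to 680 and from 458 to 275.

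**Figure D4:**
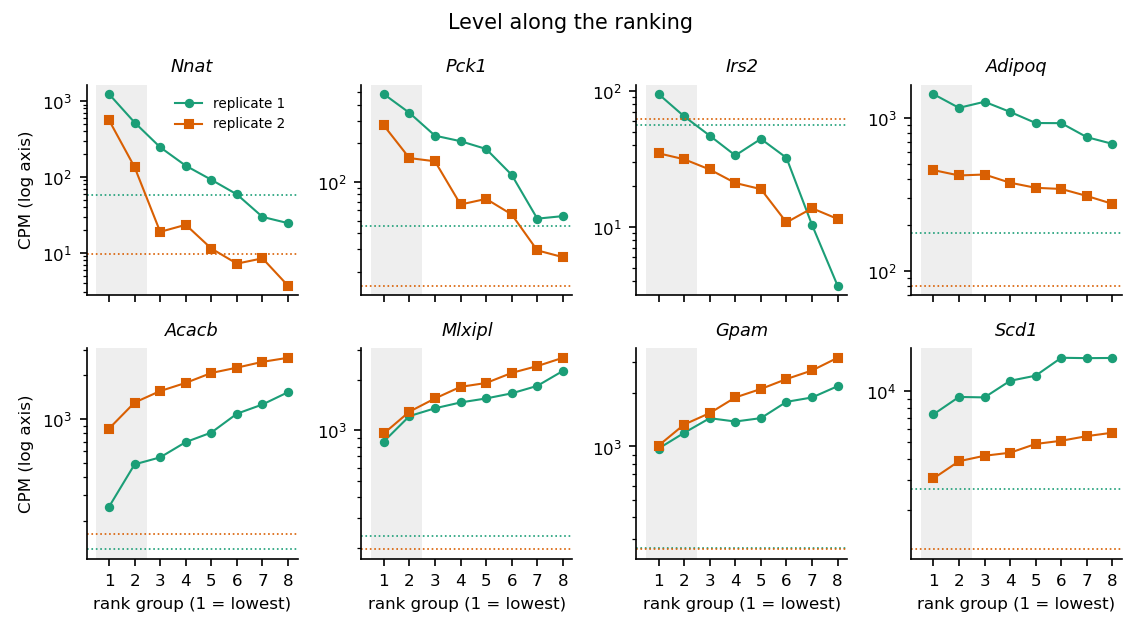
CPM on a log axis over 8 groups of adipocyte nuclei ordered by ranking share (horizontal axis), 1 panel per gene and 1 line per library, with a grey band over the groups that hold the low nuclei and dotted lines at the level in other-lineage nuclei. Nnat, Pck1, Irs2 and Adipoq are highest in group 1 in both libraries, while Acacb, Mlxipl, Gpam and Scd1 are lowest there.

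Genes of lipid release and uptake moved both ways. In lipolysis, 3 rose and 2 fell of 21 tested (median -0.09, or 0.03 with UMI totals alone), and 3 rose and 1 fell within depth bins. Adcy5, an adenylyl cyclase, was at 73.2 CPM in low and 26.0 in mid-range nuclei of replicate 1, and at 42.1 and 20.8 in replicate 2 (log2 change 1.06, SE 0.17, adjusted p 1.5e-07). Npr3, which clears natriuretic peptides, was at 601 and 486 in replicate 1 and at 304 and 187 in replicate 2 (log2 change 0.39, SE 0.092, adjusted p 6.7e-04). Both stood higher in the low nuclei of each library, with a change of 0.18 in replicate 1 and 0.575 in replicate 2 for Npr3. In other-lineage nuclei of replicates 1 and 2, Adcy5 was at 23.69 and 53.04, above the low nuclei in replicate 2 only. Npr3 was at 30.15 and 27.57 there, below the low nuclei of both. Lipe, the hormone-sensitive lipase, had a log2 change of -0.15 and was not called. In fatty acid uptake, 1 rose and 3 fell of 13 (median 0.04, or -0.01 with DESeq2), while within depth bins 3 rose (Cav1, Cav2 and Angptl4) and 2 fell. The fatty acid transporter Slc27a1 was at 885 and 1163 in replicate 1 and at 1355 and 1889 in replicate 2 (log2 change -0.57, SE 0.091, adjusted p 8.0e-08), and the fatty acid binding protein Fabp5 fell by 1.18. The lipoprotein lipase Lpl and the transporter Cd36 had log2 changes of 0.14 and 0.04 and were not called. In fatty acid oxidation, 0 rose and 2 fell of 18 (median -0.14), and 0 rose and 4 fell within depth bins. Of these the coactivator Ppargc1a was at 25.7 and 68.4 in replicate 1 and at 66.5 and 93.6 in replicate 2 (log2 change -0.82, SE 0.14, adjusted p 1.8e-07). Its change was -1.52 in replicate 1 and -0.62 in replicate 2, and -0.43 within depth bins (adjusted p 0.0106). Of 58 nuclear genes of the respiratory chain, 0 rose and 4 fell (median -0.15), of which Atp5pb, Sdha and Uqcrc1 were not called within depth bins (-0.29, -0.25 and -0.36 in place of -0.44, -0.35 and -0.50), where 0 rose and 4 fell too, and of 75 ribosomal protein genes 0 rose and 0 fell (median -0.05, or 0.08 with UMI totals alone).

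The gene with the largest change was Nnat, which encodes neuronatin, a small membrane protein of the endoplasmic reticulum, at chr2:157401879-157404573 (GRCm39). It was at 868 CPM in low and 132 in mid-range nuclei of replicate 1, and at 336 and 14.8 in replicate 2 (log2 change 3.46, SE 0.11, adjusted p 3.7e-160). Low nuclei were above mid-range nuclei in both libraries, with a log2 change of 2.59 in replicate 1 and 4.38 in replicate 2. Other-lineage nuclei had 58.1 and 9.72 CPM. Nnat lies inside Blcap, which is read from the opposite strand and rose by 0.65 (from 99.0 to 195 CPM in replicate 1 and from 57.5 to 89.9 in replicate 2), so the assignment of reads between them is uncertain. Thinned to 1000 UMIs, 112 of 366 low nuclei of replicate 1 (30.6%, exact 95% interval 25.9 to 35.6%) held a Nnat UMI, against 9.26% of mid-range nuclei and 4.53% of other-lineage nuclei. In replicate 2 the shares were 9.85% (8.27 to 11.6%), 1.14% and 1.04%. Median depths before thinning were 1770 and 1941 UMIs in other-lineage nuclei, and the intervals cover counting error only. The 10% of low nuclei with most Nnat UMIs accounted for 67.8% of them in replicate 1 and for 96.9% in replicate 2. For Pck1 the same measure gave 61.8% and 74.6%, and for Irs2, with fewer UMIs, 78.3% and 98.3%. In mid-range nuclei of replicates 1 and 2 it was higher, at 78.9% and 100% for Nnat, 72.25% and 79.28% for Pck1, and 100% and 100% for Irs2. The measure is bound to be high where few nuclei hold a UMI, as Nnat before thinning in 14.3% of low nuclei of replicate 2. It is therefore no trait of the low nuclei. Over the 8 groups by ranking share, Nnat went from 1237 CPM in group 1 to 24.6 in group 8 of replicate 1, and from 560 to 3.67 in replicate 2.

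The low nuclei were also grouped by their Nnat UMIs after values were seen, as a description with no test. In replicate 1, 208 low nuclei held 0 Nnat UMIs, 75 held 1 or 2, and 83 (22.7%) held 3 or more, and in replicate 2 these were 1087, 71 and 111 (8.75%). In the same order the median ranking share was 1.68%, 1.56% and 1.45% in replicate 1 and 1.97%, 1.74% and 1.45% in replicate 2. The median depth was 2162, 2211 and 2809 UMIs in replicate 1 and 3337, 3332 and 4543 in replicate 2, and the median mitochondrial share was 7.07%, 6.94% and 5.74% in replicate 1 and 0.451%, 0.587% and 0.25% in replicate 2. The group with 3 or more UMIs was thus the deepest and had the lowest mitochondrial share in both libraries, and the part of these in the values was not tested. Acacb was at 432, 391 and 238 CPM in replicate 1 and at 1142, 997 and 766 in replicate 2. Prune2 was at 110, 46.0 and 41.3 in replicate 1 and at 178, 124 and 61.3 in replicate 2. Both genes were lower with more Nnat UMIs in each library. Npr3 was at 476, 460 and 940 in replicate 1 and at 254, 336 and 669 in replicate 2. Cidec was at 1556, 1454 and 1818 in replicate 1 and at 1148, 1286 and 1526 in replicate 2. Both were highest in the group with 3 or more UMIs, while the group with 1 or 2 stood below that with 0 in replicate 1 and above it in replicate 2. Pck1 showed no shared order, at 377, 364 and 517 in replicate 1 and at 209, 349 and 160 in replicate 2. Dcn, a marker of fibro-adipogenic progenitors, was at 524, 308 and 513 in replicate 1 and at 177, 181 and 97.1 in replicate 2.

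Large rises were also found among other genes with 200 or more UMIs over the 4 sums. Emp1, an epithelial membrane protein gene, was at 174 CPM in low and 48.9 in mid-range nuclei of replicate 1, and at 18.5 and 3.61 in replicate 2 (log2 change 1.91, SE 0.19, adjusted p 4.7e-21). Chl1, a cell adhesion molecule of neurons, was at 241 and 80.3 in replicate 1 and at 281 and 100 in replicate 2 (log2 change 1.40, SE 0.10, adjusted p 1.7e-36). Low nuclei were above mid-range nuclei in both, but Chl1 reached 487 and 528 in other-lineage nuclei and its change within depth bins was 0.64. Emp1 stood at 81.8 and 41.2 in other-lineage nuclei, higher than in low nuclei in replicate 2 only. Ranbp3l, Cacna1e and the scaffold gene Lrrc7 rose by 1.49, 1.36 and 1.48, with changes of 2.47, 1.97 and 2.23 in replicate 1 and 1.14, 1.04 and 1.30 in replicate 2. In other-lineage nuclei of replicates 1 and 2, Cacna1e stood at 12.9 and 53.0 against 54.2 and 26.6 in low nuclei, and Lrrc7 at 28.0 and 51.2 against 18.1 and 28.6. Lrrc7 and the adenylyl cyclase gene Adcy8, which rose by 1.37, were not called within depth bins (0.76 and 0.19, adjusted p 0.109 and 0.925). In 1 low nucleus of replicate 1, with 10101 UMIs, lay 58 of the 64 Acta2 UMIs, 43 of the 50 Myh11 UMIs and many of the Kcnab1 and Cacnb2 UMIs of the low nuclei of that library. Without this nucleus, a choice made after the values were seen, the changes of Acta2 and Myh11, both of smooth muscle, were 0.13 (adjusted p 0.923) and 0.80 (adjusted p 0.138) in place of 1.74 and 1.67. Kcnab1 went from 1.41 to 0.85 (adjusted p 0.00436) and Cacnb2 from 1.64 to 1.21 (adjusted p 4.0e-04). Both stood higher in other-lineage nuclei of replicates 1 and 2, with Kcnab1 at 213 and 414 CPM against 67.53 and 34.35 in low nuclei. Cacnb2 was at 123 and 260 there against 41.85 and 26.78. These levels of low nuclei include the nucleus with 10101 UMIs.

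Among genes with 200 or more UMIs over the 4 sums, the largest fall was that of Prune2. Prune2 (chr19:16933482-17201320, GRCm39) was at 78.0 CPM in low and 336 in mid-range nuclei of replicate 1, and at 163 and 593 in replicate 2 (log2 change -2.06, SE 0.10, adjusted p 2.1e-72). Hephl1, a relative of the copper ferroxidase hephaestin, was at 41.9 and 174 in replicate 1 and at 68.3 and 204 in replicate 2 (log2 change -1.82, SE 0.12, adjusted p 1.9e-47). Ppp1r3b, which directs protein phosphatase 1 to glycogen, was at 320 and 700 in replicate 1 and at 342 and 887 in replicate 2 (log2 change -1.40, SE 0.095, adjusted p 3.2e-42). For all 3 genes the low nuclei of both libraries lay below the mid-range nuclei of both. The fructose transporter Slc2a5 was at 39.0 and 72.6 in replicate 1 and at 20.7 and 66.6 in replicate 2 (log2 change -1.56, SE 0.16, adjusted p 2.6e-18), with -1.01 in replicate 1 and -1.81 in replicate 2. The transcriptional corepressor Runx1t1 fell by 1.46. Ccn5 fell by 1.76, with -0.83 in replicate 1 and -2.15 in replicate 2, which are imprecise on 11 and 22 UMIs in low nuclei. Pgm3, an enzyme of UDP-N-acetylglucosamine synthesis, was at 157 and 459 in replicate 1 and at 307 and 723 in replicate 2 (log2 change -1.48, SE 0.098, adjusted p 5.6e-44).

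Pgm3 lies 7.97 kb from the ranking gene Me1. Of 24 tested genes within 50 kb of a ranking gene, looked up after the values were seen, 7 fell and 0 rose, or 29.2% called. They were Odad4 near Acly, Ccdc57 near Fasn, Gm35986 near Elovl6, Acss2os near Acss2, and Pgm3, Prss35 and Gm17530 near Me1. Acss2os was not called within depth bins (adjusted p 0.112). Of 6 tested genes that overlap a ranking gene on the opposite strand, where reads could be counted for either, Odad4, Gm35986 and Acss2os fell, while Tada2a, Gm11437 and Gss had log2 changes of -0.34, 0.53 and 0.24 and were not called. Of the other genes that fell, Ccdc57, Pgm3 and Gm17530 lie on the strand of their ranking gene, and Prss35 on the opposite strand. Nt5c3b, Klhl11, Dnajc7, Rfng, Dus1l and Gssos1 also lie on the strand of their ranking gene and were not called. The part of overlap, nearness and strand in these changes was not tested.

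The summed levels of the tested markers of progenitors, macrophages, endothelial, mural and mesothelial cells and lymphocytes were higher in low than in mid-range nuclei of both libraries, and their part in the genes that rose was not tested. Most single markers were not called, and 4 of these had a lower CPM in low nuclei of 1 library, on few UMIs: Krt7, Lrrn4 and Cdh5 in replicate 1 (1, 6 and 6 UMIs in low nuclei) and Notch3 in replicate 2 (20 UMIs). The sums leave out the gate genes, which the choice of nuclei limits in adipocyte nuclei and requires in other-lineage nuclei. Since other-lineage nuclei were chosen by genes of the same cell types, their levels are given as a reference and not as a test.

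Of 7 tested markers of fibro-adipogenic progenitors, 4 rose (Dcn, Col1a2, Dpp4 and Fbn1) and 0 fell, while at a gate of 20 UMIs the change of Col1a2 turned to -0.004053 (adjusted p 0.998). Their summed level, in which Dcn was the most abundant, was 714 CPM in low and 445 in mid-range nuclei of replicate 1, and 299 and 199.6 in replicate 2, against 10457 and 5953 in other-lineage nuclei. Of 5 macrophage markers, 2 rose, Mrc1 and Lyz2, at changes of 0.27 and 0.09 in replicate 1 and 1.06 and 1.02 in replicate 2. Their summed level was 192 and 146 in replicate 1 and 119 and 58.8 in replicate 2, against 1932 and 647 in other-lineage nuclei, with Cd74 the most abundant in low nuclei of replicate 1 and Mrc1 in replicate 2. Of 5 endothelial markers, Tek rose, at a summed level of 67.5 and 49.7 in replicate 1 and 70.2 and 32.3 in replicate 2, against 435 and 578, with Flt1 the most abundant. Of 4 mural markers, Myh11 and Acta2 rose, at a summed level of 151 and 27.1 in replicate 1 and 27.5 and 16.4 in replicate 2, against 112 and 120 in other-lineage nuclei, with Acta2 the most abundant in replicate 1 and Myh11 in replicate 2. The mural markers of replicate 1 came mostly from the nucleus with 10101 UMIs described above. Of 5 mesothelial markers, Muc16 rose and was the most abundant, at a summed level of 48.5 and 35.6 in replicate 1 and 51.9 and 29.0 in replicate 2, against 1273 and 1410. Of 4 lymphocyte markers, Bank1 rose, at a summed level of 28.5 and 20.6 in replicate 1 and 65.9 and 34.8 in replicate 2, against 99.1 and 152, with Skap1 the most abundant.

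Within depth bins the markers that rose were Dcn, Mrc1, Cd74, Myh11 and Acta2. The ranking within bins did not leave out the nucleus with 10101 UMIs. Without that nucleus and without bins, neither Myh11 nor Acta2 was called, as given above. Cd74 (adjusted p 0.0261) gained its call within the bins, and 7 markers lost theirs. Of these, Lyz2 and Bank1 moved little, from 0.65 to 0.59 (adjusted p 0.0639) and from 0.97 to 0.90 (adjusted p 0.0503). The others moved further: Muc16 from 0.86 to 0.09, Tek from 1.26 to 0.40, Col1a2 from 0.63 to 0.27, Dpp4 from 0.73 to 0.45 and Fbn1 from 0.66 to 0.45. The median of the lymphocyte markers moved from 0.59 to -0.15, and that of the mesothelial markers from 0.60 to 0.09. No marker of these lists was at 0 UMIs in the low nuclei. Of the thermogenic markers, 1 was tested, the potassium channel gene Kcnk3. It fell by 0.67 and was lower in low than in mid-range nuclei of both libraries. The thermogenic gate genes Cidea, Esrrg and Ucp1, which the choice of nuclei limits, were not tested, and their levels are a description. Their summed level was 50.41 CPM in low and 43.96 in mid-range nuclei of replicate 1, and 58.54 and 36.52 in replicate 2. Esrrg and Ucp1 stood higher in low nuclei of both libraries, and Cidea in replicate 2 only.

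**Figure D5:**
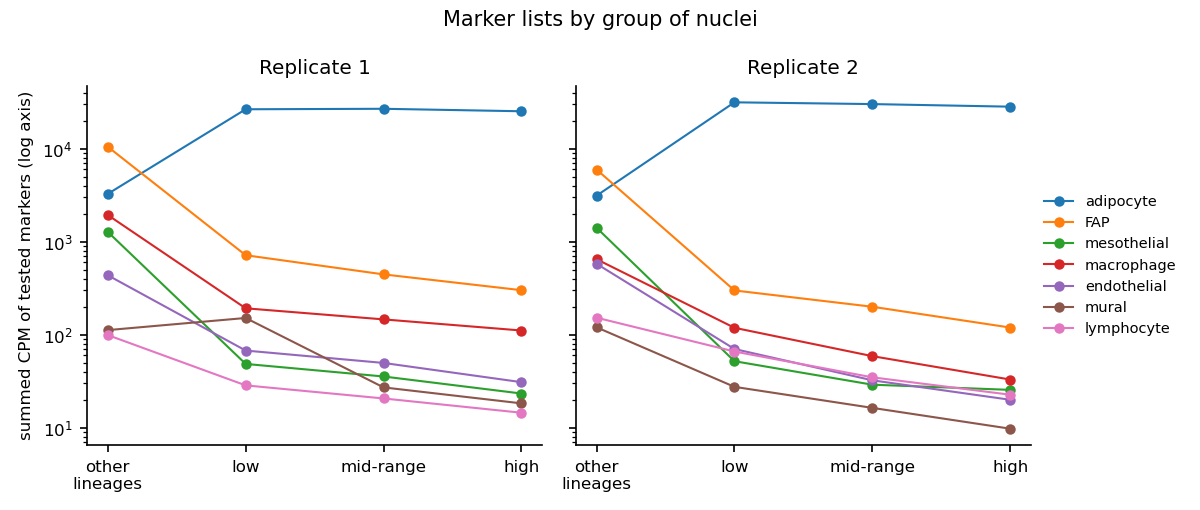
Summed CPM on a log axis of the tested genes of each marker list, without gate genes, in other-lineage, low, mid-range and high nuclei of each library, 1 line per list, with FAP for fibro-adipogenic progenitors. Adipocyte markers are between 25167 and 31401 in adipocyte nuclei, and the sums for the 6 other cell types shown are higher in low than in mid-range nuclei.

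Genes of the matrix and cytoskeleton gave 5 that rose and 1 that fell of 24 tested (median 0.03, or -0.02 with DESeq2), and 4 rose and 0 fell within depth bins. Vim, an intermediate filament gene, was at 126 CPM in low and 83.7 in mid-range nuclei of replicate 1, and at 103 and 61.9 in replicate 2 (log2 change 0.56, SE 0.12, adjusted p 1.0e-04). Flna, Col6a1 and Col6a3 rose by 0.74, 0.71 and 0.63, with Col6a3 at 0.19 in replicate 1 and 0.84 in replicate 2. All 4 stood higher in other-lineage than in low nuclei, as with Vim at 282 and 203. Among adipokines, 1 rose and 2 fell of 17 (median 0.06), while within depth bins 3 rose (Rarres2, Pdgfc and Cxcl12), 1 fell and the median was -0.01. Rarres2, which encodes chemerin, was at 55.2 and 22.2 in replicate 1 and at 33.8 and 13.9 in replicate 2 (log2 change 1.17, SE 0.20, adjusted p 2.7e-07), against 243 and 226 in other-lineage nuclei. The guidance factor Sema3a fell by 0.67, and its change was -1.17 in replicate 1 and -0.53 in replicate 2. Nrg4 fell by 0.29 and was not called within depth bins (-0.11).

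Among adipocyte transcription factors, 2 rose and 1 fell of 16 (median 0.02, or -0.01 with DESeq2), while within depth bins 4 rose (Zbtb16, Bcl6, Ebf2 and Klf15), 0 fell and the median was 0.11. Zbtb16 was at 212 CPM in low and 134 in mid-range nuclei of replicate 1, and at 865 and 602 in replicate 2 (log2 change 0.44, SE 0.098, adjusted p 2.4e-04). The repressor Bcl6 rose by 0.32, and the low nuclei were above the mid-range nuclei in both libraries for these genes. Pparg, the master regulator of the adipocyte, had a log2 change of -0.24 and was not called. Of 15 clock genes, 0 rose and 2 fell (median -0.09, or 0.04 with UMI totals alone), and 0 were called within depth bins. Of 22 stress and inflammation genes, 2 rose and 3 fell (median -0.01, or 0.11 with UMI totals alone), and 1 rose and 1 fell within depth bins. Of 5 RNAs retained in the nucleus, 0 rose and 1 fell, Kcnq1ot1, by 0.31, and it was not called within depth bins (-0.14). Of 13 tested genes of the mitochondrial genome, 2 rose, the ribosomal RNAs mt-Rnr1 and mt-Rnr2, and 0 rose within depth bins, where their changes were 0.12 and 0.16 in place of 0.38 and 0.33. Without bins they were 0.09 and 0.10 in replicate 1, and 0.68 and 0.55 in replicate 2. Of 23 genes that the study names for adipocytes or for their exchange with progenitors, receptors included, 2 rose and 4 fell (median 0.06), and 3 rose and 3 fell within depth bins. Of the genes that rose, Tek also belongs to the endothelial markers here. Since the study chose the genes on these samples, this is not independent evidence of a direction. Among them, Eepd1 was at 915 and 617 in replicate 1 and at 755 and 565 in replicate 2 (log2 change 0.36, SE 0.090, adjusted p 0.00181).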

How the data were processed

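Nuclei of 2 snRNA-seq libraries were analysed from the deposited UMI count matrices, in which each value is a UMI count as the authors made it with CeleScope on GRCm39; the version and the annotation are not given in the sources used here. The deposited UMI saturation is in percent. UMIs were summed per library and class, giving 4 sums, and compared with edgeR 4.0.16 (R 4.3.3; filterByExpr, TMM, glmQLFit, glmQLFTest), with library as a block because both classes come from the library of the same mouse. P-values were two-sided and adjusted by Benjamini-Hochberg over all tested genes, and a gene was called at an adjusted p under 0.05. The 6 ranking and 17 gate genes were left out of the test. No doublets were removed. The alternatives were DESeq2 1.42.0, no block, no filter, UMI totals alone, other gates, limits and comparisons, thinned counts, depth bins and leaving out each replicate. Exact intervals are Clopper-Pearson at 95% (scipy 1.17.1), with Python 3.11.15, numpy 2.4.6, pandas 2.3.3, matplotlib 3.10.9 and seed 1. Gene positions are from GENCODE vM39.

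The members and the gene lists were chosen with earlier results of these data known. Named genes are called members of the lists, up to 4 others of each list, the most abundant, and the 10 called genes with the largest change each way among those with 200 or more UMIs and the same direction in both libraries. Some members of the lists count in the totals and are not reported here by name.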

Additional observations from a re-analysis of the deposited data

How the results depend on the processing

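The library block bore most on the number of called genes, 1389 of 15003. Without the block edgeR called 0 genes, with 557 at an unadjusted p under 0.05, and DESeq2 with the block called 271. Ranking within depth bins gave 742, a mitochondrial limit of 5% gave 488, a gate of 20 UMIs gave 547, and all higher nuclei as the comparison gave 2688. Within 1.5 times were no filter (1322), thinned counts (989), shares outside mitochondrial genes (1304) and leaving out the 6% of nuclei with most UMIs (1048). UMI totals alone (1505) and leaving out 1 nucleus rich in Acta2 (1314) were chosen after seeing the data and also lay within 1.5 times. The cause was not tested. Of 214 named genes, 123 were called. Without the block 123 fell short of the threshold, within depth bins 39, at a gate of 20 UMIs 52 of 212, at a mitochondrial limit of 5% 51 of 212, and with DESeq2 42 of the 163 it gave an adjusted p. The progenitor marker Col1a2 reversed at a gate of 20 UMIs, to -0.004053 (adjusted p 0.998), and the cause was not tested. Leaving out replicate 1 moved 1 named gene and leaving out replicate 2 moved 40, and none of the 123 called genes reversed. The 6 held-out ranking genes kept their direction and their call within depth bins, and their direction in each replicate. As ratios of CPM without TMM, and so not on the scale of the fitted changes, these were -0.601 to -0.574 for Acaca, -1.026 to -0.8088 for Acly, -0.352 to -0.242 for Fasn, -1.606 to -1.604 for Elovl6, -1.256 to -1.005 for Acss2 and -1.323 to -1.108 for Me1. With 366 low nuclei in replicate 1, changes per library are imprecise for genes with few UMIs.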
